A study of Canis lupus familiaris with 186 samples.

Results

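The genes described are 9 that act on platinum drugs or on drug efflux: the copper and platinum transporter SLC31A1, the copper-transporting ATPases ATP7A and ATP7B, the glutathione transferase GSTP1, the DNA repair gene ERCC1, and the efflux pumps ABCB1, ABCC1, ABCC2 and ABCG2. They were taken by symbol from the 37952 genes of the deposited table, where they fill 10 rows because ABCG2 has 2. Of the 9 genes, 8 passed the filter on low counts, which 13421 genes passed in all, and ABCC2 did not. The rule that picks them names genes and uses no measured value. The DOG2 data are mRNA sequencing of 186 primary tumors from pet dogs of varied age, breed and sex with osteosarcoma of a limb and no visible metastasis. Each tumor was sampled before any treatment, so the levels are those of untreated tumors. All dogs then had the limb amputated and were given carboplatin, with or without rapamycin. The labels give 93 dogs in the trial COTC021 and 93 in COTC022, with 1 tumor per dog, and the trial number is the only group they give.

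Carboplatin kills dividing cells by forming platinum adducts on DNA, including crosslinks within a strand. SLC31A1 (CTR1) imports copper and has been linked to platinum entry, while ATP7A and ATP7B move copper into the secretory pathway and out of the cell and have been linked to platinum export. GSTP1 joins electrophiles to glutathione, ERCC1 with its partner ERCC4 cuts the damaged strand in nucleotide excision repair, and the ABC pumps use ATP to expel drugs. ABCB1 (P-glycoprotein) expels large lipophilic drugs such as doxorubicin and the vinca alkaloids, ABCC1 and ABCC2 export glutathione conjugates, and ABCG2 exports a range of amphipathic drugs. Expression in a whole tumor sums malignant osteoblasts, osteoclasts, immune cells, vessels and stroma, so fewer cells of a type and less RNA per cell cannot be told apart.

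Libraries held 6587634 to 27420867 counts (median 10797171). In the deposited table the column names of 50 libraries, 18 of COTC021 and 32 of COTC022, have 2 low lines in a row, and these are called marked libraries here. They were deeper, at a median of 19440456 counts, than the 136 unmarked libraries, at 9851682. What the mark stands for is not given in the sources used here, so results are also given within each kind. The 11 osteoblast lineage markers were all measured and together made up between 1405 and 232955 CPM, with a median of 49190 CPM. CPM are counts scaled to the library total, adjusted by TMM factors. The levels of 2 genes are not compared with each other below, because CPM do not allow for transcript length.

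On the genome build GSD_1.0, SLC31A1 lies at chr11:68000439-68039329, ATP7A at chrX:60346304-60499464 and ATP7B at chr22:163429-197022. GSTP1 lies at chr18:50409350-50412373 and ERCC1 at chr1:110842133-110858633. The pumps lie on 4 chromosomes, with ABCB1 at chr14:13622793-13720201, ABCC1 at chr6:28117166-28251282, ABCC2 at chr28:12857984-12927300 and ABCG2 at chr32:28373259-28501671. All 9 are annotated as coding for protein, and each interval is the span of the gene. ERCC1 overlaps POLR1G by 168 bases and SLC31A1 overlaps FKBP15 by 18 bases, so reads at those ends could belong to either gene. Long non-coding RNAs lie within the spans of ATP7B, ABCC1 and ABCC2, and annotated pseudogenes within those of ABCC2 and ABCG2. Whether the counting used strand is not given in the sources used here, so reads from such overlapping genes may not have been told apart. The 2 rows of ABCG2 held counts that were not whole in 186 of 186 libraries, while their sum was whole within 0.011 counts in 186 of 186. The first row took between 26.8% and 76.7% of the sum, with a median of 49.0%, so reads appear to be divided between the rows, which were added together here.

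SLC31A1 was counted in every library, at 29.7 CPM in the lowest, a median of 77.1 CPM and 154 CPM in the highest. The SD of its log2 CPM was 0.457, larger than that of 21.0% of the genes tested and of 39.2% of genes at a similar level. In COTC021 its level ran from 29.7 CPM through a median of 77.1 CPM to 153 CPM, and in COTC022 from 35.9 CPM through a median of 77.2 CPM to 154 CPM. The medians of the trials thus lay within 1 CPM and their ranges overlapped almost completely.

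Of the copper ATPases, both were present in every tumor. ATP7A ran from 6.97 CPM through a median of 29.3 CPM to 118 CPM. Both its lowest and its highest tumor stood outside the range of the other trial: COTC021 spanned 15.4 to 118 CPM around a median of 29.4 CPM, and COTC022 spanned 6.97 to 77.5 CPM around a median of 29.0 CPM. ATP7B ran from 2.13 CPM through a median of 7.55 CPM to 25.0 CPM. It was counted with fewer reads than ATP7A, with a median of 86 counts per library and 18 in the lowest, so single-library values are less precise. The SD of log2 CPM was 0.577 for ATP7A and 0.690 for ATP7B, against a median of 0.616 over the genes tested.

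GSTP1 was counted in every tumor and its spread rested in part on 1 dog. It ran from 38.3 CPM through a median of 96.9 CPM to 1164 CPM, and the second highest tumor had 294 CPM. The median was 95.4 CPM in COTC021, whose tumors spanned 43.8 to 1164 CPM, and 99.7 CPM in COTC022, whose tumors spanned 38.3 to 294 CPM. ERCC1 varied less than most genes. Its level ran from 5.30 CPM through a median of 17.0 CPM to 39.2 CPM, and the SD of its log2 CPM, 0.446, was larger than that of only 18.2% of the genes tested. Its median was 16.4 CPM in COTC021, whose tumors spanned 5.30 to 35.6 CPM, and 17.3 CPM in COTC022, whose tumors spanned 9.68 to 39.2 CPM.

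ABCB1 was the member that varied most. No read was counted in 2 libraries, fewer than 10 counts were found in 37, and 100 counts or more in another 37, around a median of 2.82 CPM and a highest level of 201 CPM. The 10 dogs with the highest level held 50.0% of the ABCB1 expression summed over the 186 dogs, where the same share was 8.97% for SLC31A1 and 17.0% for ABCC1. The SD of its log2 CPM was 1.81, larger than that of 95.6% of the genes tested and of 84.3% of genes at a similar level. In COTC021 ABCB1 ran from 0.0965 CPM through a median of 3.46 CPM to 201 CPM, and in COTC022 from 0 through a median of 2.26 CPM to 40.3 CPM. The trials overlapped up to the 40.3 CPM at which COTC022 ended, and tumors above that were from COTC021.

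ABCC1, the conjugate exporter, ran from 2.27 CPM through a median of 18.3 CPM to 169 CPM, with a second highest tumor at 87.4 CPM. Its log2 CPM had an SD of 0.907, larger than that of 72.4% of the genes tested and of 82.8% of genes at a similar level. ABCG2 ran from 2.68 CPM through a median of 15.0 CPM to 45.5 CPM, with an SD of 0.711. ABCC2, best known from the bile canaliculus of the liver, was at the limit of detection. No read was counted in 169 of 186 libraries, 1 to 3 in 16 and 6 in the library with the most, and all libraries together held 30 counts of ABCC2. A count of 0 allows up to 3 counts, which is between 0.109 and 0.455 CPM at these depths and covers counting error only, so ABCC2 was left out of the fits and correlations.

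**Figure D1:**
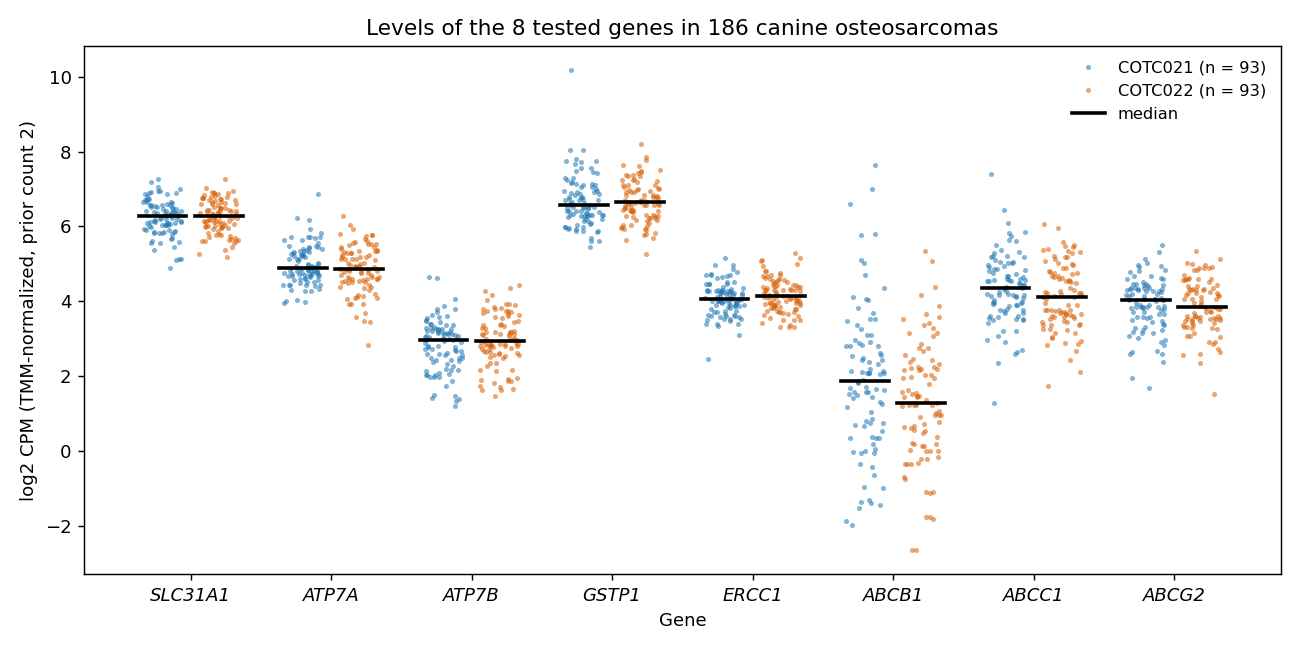
Level of the 8 tested genes in each dog, as TMM-normalized log2 CPM with a prior count of 2 on the vertical axis, in COTC021 (blue, n = 93) and COTC022 (orange, n = 93), with black bars at the medians. ABCB1 has the widest spread, with an SD of 1.81, ERCC1 the narrowest, with an SD of 0.446, and 1 COTC021 dog stands above all others in GSTP1.

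The first comparison asked whether the levels before treatment differed between the trials. The study treated the 2 trials as batches in its own canine fit, so a difference between trials and one between batches cannot be told apart. In the limma-voom fit, 0 of the 8 genes passed an adjusted p of 0.05 and 0 had an unadjusted p below 0.05. Of the 13421 genes tested 2 passed, or 0.0149%, and 1331 had an unadjusted p below 0.05. The largest estimate among the 8 was that of ABCB1, lower in COTC022 by a log2 difference of -0.53 (SE 0.283), with a 95% confidence interval from -1.09 to 0.03, an unadjusted p of 0.0618 and an adjusted p of 0.527. ABCC1 had a log2 difference of -0.22 (SE 0.132) and an adjusted p of 0.595. The other 6 had log2 differences between -0.12 for ATP7A and 0.12 for ATP7B, with adjusted p from 0.619 for ERCC1 to 0.980 for GSTP1. With the kind of library as a term, the ABCC1 difference was -0.31 (SE 0.131, unadjusted p = 0.0188, adjusted p = 0.340). It was -0.52 (SE 0.217, adjusted p = 0.763) within the marked libraries and -0.20 (SE 0.160, adjusted p = 0.6025) within the unmarked. In edgeR's quasi-likelihood fit and in DESeq2 it was -0.27 and -0.28, with unadjusted p of 0.0416 and 0.0306 and adjusted p of 0.342 and 0.302.

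The ABCB1 value depended on the tool. Tools that model the counts themselves called ABCB1 lower in COTC022, with a log2 difference of -1.31 and an adjusted p of 0.00517 in edgeR's quasi-likelihood fit, which called 0.961% of genes, and of -1.32 with an adjusted p of 0.00136 in DESeq2, which called 0.529%. The next 2 checks were added after seeing the data. Without the 1 library highest in ABCB1, the edgeR value was -1.01 with an adjusted p of 0.0383, and 143 of 13421 genes passed. A two-sided permutation test of the mean log2 CPM, not adjusted for the number of genes, gave a difference of -0.60 and p = 0.0242 (n = 186). The limma-voom difference was -0.85 (SE 0.369) within the unmarked libraries and 0.14 (SE 0.466) within the marked libraries. The interaction of trial and library name had an unadjusted p of 0.120 and an adjusted p of 0.561, so a difference between these values was not shown.

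The second comparison related the genes to 27 genes of GS-1, a signature from earlier canine osteosarcoma work. The signature is larger, and its remaining genes did not pass the filter of the study and were not used here. The 27 genes are expressed largely in leukocytes, such as CD53, C1QB and IKZF1. A score was computed for each dog as its mean z-score over the 27 genes and scaled to an SD of 1, and none of the 9 genes is among the 27. No groups of dogs were made from the score, and the trial was a term of the fit. Over all genes tested, 48.5% passed the test against the score, 2994 upward and 3513 downward, or 22.3% and 26.2%, so a call is common. Among the 8 genes 3 passed, 2 upward and 1 downward.

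ATP7B fell as the GS-1 score rose, by a log2 slope of -0.22 per SD of the score (SE 0.0521) with an adjusted p of 0.000252. Its slope was -0.21 within COTC021 and -0.22 within COTC022, both past the threshold, with adjusted p of 0.0358 and 0.00935. It was -0.23 in the unmarked libraries, and -0.17 with an adjusted p of 0.123 in the marked libraries. The Pearson correlation of ATP7B with the score was -0.333 (permutation p = 1e-05, the smallest that 100000 resamples can give) and the Spearman rho -0.257 (permutation p = 0.00040, adjusted over all genes p = 0.00146). Without the 2 dogs farthest from the median score r was -0.275, and rho lay between -0.131 and -0.275 in the trials and kinds of library.

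SLC31A1 rose with the score, by a log2 slope of 0.10 per SD (SE 0.0332) and an adjusted p of 0.00989. The slope was 0.12 in COTC022 with an adjusted p of 0.0218, and 0.06 in COTC021 with an adjusted p of 0.351. It was also 0.06 in the marked libraries, where it did not pass. The Spearman rho with the score was 0.277 (permutation p = 0.00016, adjusted p = 0.000575) and Pearson's r 0.210 (permutation p = 0.00425), or 0.245 without the 2 dogs farthest out, with rho between 0.200 and 0.372 in the trials and kinds of library. The slope of 0.10 compares with an SD of 0.457 over dogs.

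ABCB1 also rose with the score, by a log2 slope of 0.40 per SD (SE 0.122) with an adjusted p of 0.00360. This call was lost with edgeR (0.27, adjusted p = 0.0792), where 50.2% of all genes passed, with DESeq2 (0.27, adjusted p = 0.0724), where 51.5% did, within COTC021 (0.31, adjusted p = 0.224) and within the unmarked libraries (0.28, adjusted p = 0.218). The sign was the same in each. Within COTC022 the slope was 0.47, with an adjusted p of 0.00927. The Spearman rho with the score was 0.182 (permutation p = 0.0127, adjusted p = 0.0293), and Pearson's r was 0.209 (permutation p = 0.00402), or 0.192 without the 2 dogs farthest out, with rho between 0.110 and 0.270 in the trials and kinds of library. The slopes of the other 5 genes lay between -0.10 for ABCC1 and 0.05 for ABCG2. GSTP1 (0.01, SE 0.0458) and ERCC1 (0.01, SE 0.0326) had 95% intervals from -0.09 to 0.10 and from -0.05 to 0.07 per SD. None of the 8 genes had a slope that differed between the trials or between the kinds of library after adjustment, nor had any other gene in these interaction tests, where 351 genes had an unadjusted p below 0.05 for the trials and 960 for the kinds of library.

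**Figure D2:**
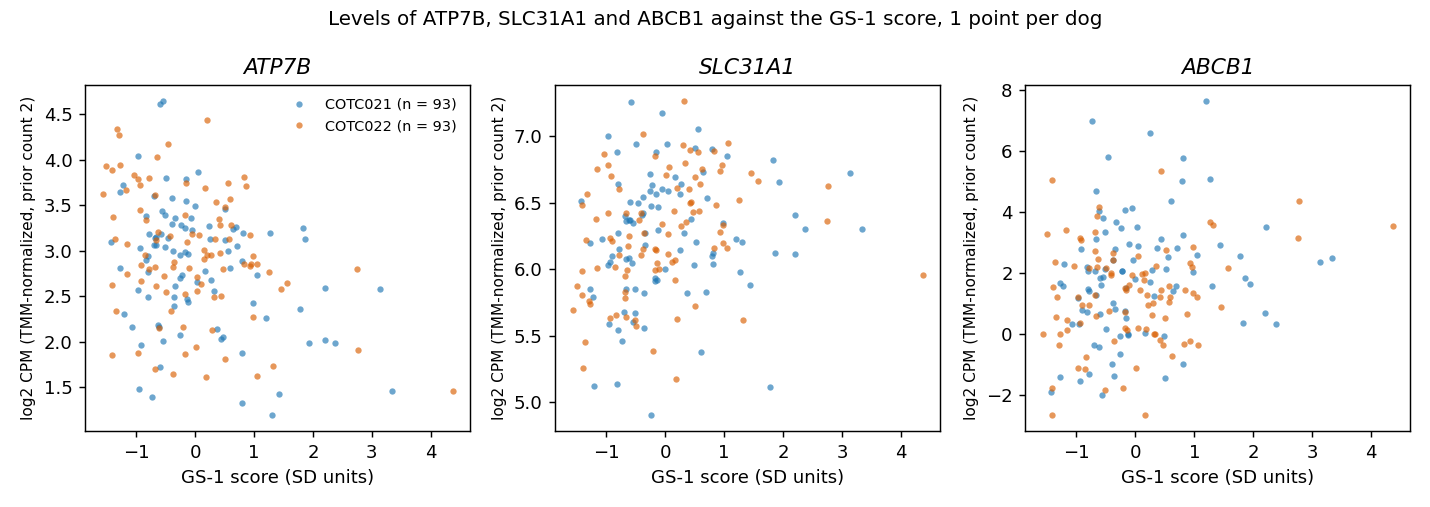
Level of ATP7B, SLC31A1 and ABCB1 in each dog (vertical axis, TMM-normalized log2 CPM with a prior count of 2) against the GS-1 score in SD units (horizontal axis), in COTC021 (blue) and COTC022 (orange). ATP7B declines with the score, with a Spearman rho of -0.257, while SLC31A1 and ABCB1 increase, with rho of 0.277 and 0.182, and each cloud is wide.

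The third comparison was between the marked libraries and the unmarked, which differ in depth and in the mix of trials. ABCC1 was higher in the marked libraries. Its level there ran from 6.24 CPM through a median of 23.9 CPM to 66.4 CPM, against 2.27, 17.3 and 169 CPM in the unmarked, so the ranges overlapped. With the trial in the fit, the log2 difference was 0.44 (SE 0.138) with an adjusted p of 0.0400, in a comparison where 4.28% of genes passed. ABCC1 did not pass in edgeR (0.35, adjusted p = 0.144), where 5.16% of genes did, in DESeq2 (0.35, adjusted p = 0.142), where 5.09% did, within COTC021 (0.63, adjusted p = 0.105) or within COTC022 (0.30, adjusted p = 0.459). ATP7B had a log2 difference of 0.23 (SE 0.104), an unadjusted p of 0.0302 and an adjusted p of 0.208. The other 6 genes had adjusted p from 0.489 for GSTP1 to 0.812 for ABCB1. Whether the depth of the libraries had a part in the ABCC1 difference was not tested.

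**Figure D3:**
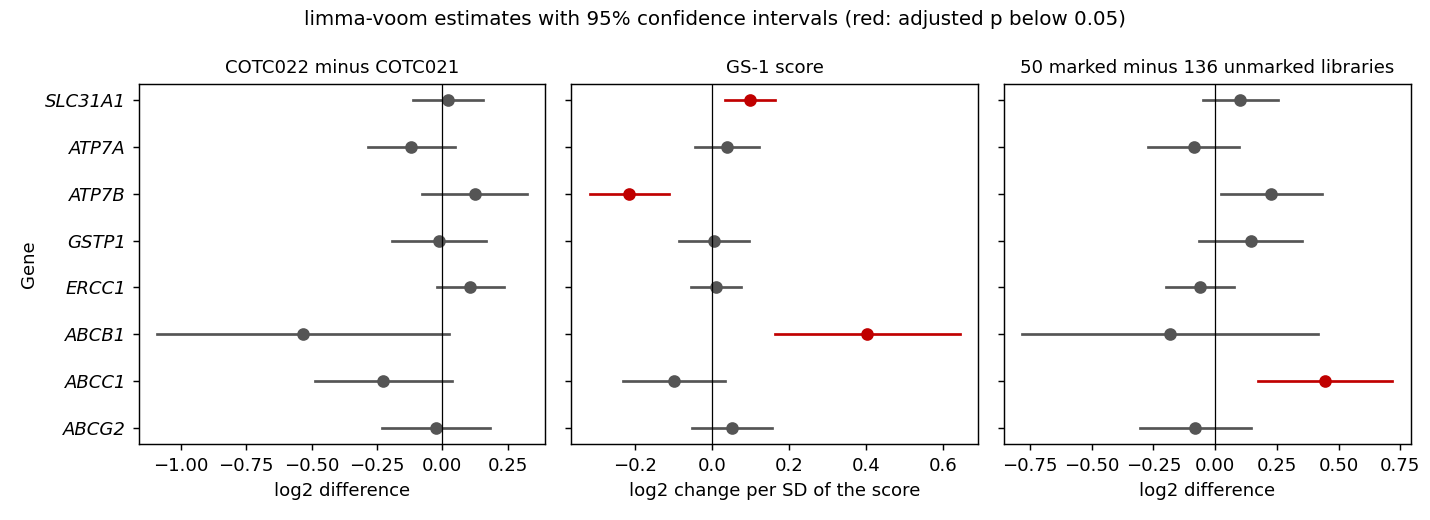
limma-voom estimates (points) with 95% confidence intervals (lines) for the 8 tested genes, as log2 differences between the trials (left) and between the kinds of library (right) and as log2 change per SD of the GS-1 score (middle), with red marking an adjusted p below 0.05. The left panel holds no red point, the middle panel holds 3, and the right panel holds 1, ABCC1 at 0.44.

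The genes that work beside these 9 were taken from 6 lists with 125 genes, of which 112 were in the table under their symbol and 103 were tested. In the fit of the trials 0 of the 103 passed, and 7 had an unadjusted p below 0.05. The median log2 difference was -0.02, against 0.00 over all genes. With edgeR and with DESeq2 1 passed, where 0.961% and 0.529% of all genes did. It was the crosslink nuclease subunit MUS81, named after its values were seen, at 0.28 in both (adjusted p = 0.00634 and 0.0170). Against the GS-1 score 23 rose and 26 fell, which is 47.6% of the 103 and near the 48.5% of all genes. The 23 include ABCA3, which is itself a GS-1 gene. Between the kinds of library 1 of the 103 passed, or 0.971%, below the 4.28% of all genes. It was the damage-sensing DDB1, also named after its value was seen, higher in the marked libraries by a log2 difference of 0.23 (SE 0.0660, adjusted p = 0.0208).

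By list, the counts along the GS-1 score stand beside the 22.3% of all genes that rose and the 26.2% that fell. Of 22 genes for mismatch and crosslink repair, 0 rose and 13 fell, or 59.1% in all, with a median slope of -0.10 against -0.02 over all genes. FANCA and FANCC, of the core complex that responds to crosslinks, had slopes of -0.39 (SE 0.0642, adjusted p = 5.59e-08) and -0.36 (SE 0.0588, adjusted p = 4.08e-08). Of 27 genes of nucleotide excision repair, the pathway of ERCC1, 5 rose and 9 fell, or 51.9%, with a median of -0.05. The partner of ERCC1, ERCC4, named for that role after its value was seen, had a slope of 0.07 (SE 0.0300, adjusted p = 0.0463). The proliferation score, the mean z-score of 12 cell cycle genes, had a Spearman rho of -0.316 with the GS-1 score, and its part in the slopes of the repair genes was not tested.

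Of 25 genes of glutathione metabolism and NRF2, the factor that induces many of them, 10 rose and 3 fell, or 52.0%, with a median slope of 0.08. MGST1, a membrane-bound glutathione transferase, rose by 0.93 per SD (SE 0.0875, adjusted p = 1.38e-19), while its relative MGST2 fell by 0.33 on the log2 scale per SD (SE 0.111, adjusted p = 0.0103). MGST1 ran from 0.0981 CPM through a median of 6.27 CPM to 162 CPM. Of 15 genes of copper handling 4 rose and 1 fell, or 33.3%, below the 48.5% of all genes. Among them was SLC31A2, the relative of SLC31A1 named after its value was seen, with a slope of 0.51 (SE 0.0396, adjusted p = 3.97e-26) against 0.10 for SLC31A1. Of 11 other drug transporters 4 rose and 0 fell, or 36.4%, also below that share, led by the lipid transporter ABCA3 at 0.77 and the conjugate exporter ABCC3 at 0.76 (SE 0.0445, adjusted p = 4.44e-38). ABCA3 is itself 1 of the 27 GS-1 genes, so its slope follows from the score, and the count of 4 includes it. Of 3 tested organic cation and other platinum carriers 0 passed, with 0 at an unadjusted p below 0.05 as well. Markers of macrophages moved with the score: all 11 were tested, 0 were at 0 in every library, their summed level ran from 120 CPM through a median of 1133 CPM to 7665 CPM, and their mean z-score had a Spearman rho of 0.909 with the GS-1 score, although only VSIG4 is shared by the lists. The T cell score had a rho of 0.766 with the GS-1 score, the neutrophil score 0.357, the chondrocyte score -0.353 and the osteoblast lineage score -0.313. The part of these cell types in the slopes given here, those of ABCB1, ATP7B and SLC31A1 included, was not tested.

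Co-expression among the 8 genes was weak. Of 28 pairs, 5 passed an adjusted p of 0.05 against all genes from both sides, and the strongest had a Spearman rho of 0.269. As background, the share of all tested genes that passed against a member was 27.7% for SLC31A1, 40.1% for ATP7A, 17.4% for ATP7B, 7.15% for GSTP1, 30.0% for ERCC1, 21.2% for ABCB1, 33.5% for ABCC1 and 13.8% for ABCG2. GSTP1 and ABCC1, which act in turn on glutathione conjugates, had a Spearman rho of 0.269 (permutation p = 0.00017, adjusted over all genes p = 0.0107) and a Pearson's r of 0.328 (permutation p = 3e-05), or 0.296 without the 2 dogs farthest from the median of GSTP1. Of all genes, 1.10% had a higher rho with GSTP1 and 6.51% a higher rho with ABCC1. The pair stood at 0.482 within COTC021 and 0.091 within COTC022, and at 0.040 within the marked libraries and 0.314 within the unmarked, so it was near 0 in COTC022 and in the marked libraries.

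SLC31A1 and ATP7A had a rho of 0.215 (permutation p = 0.00330, adjusted p = 0.0172), a pair in which the r of 0.151 (permutation p = 0.0398) was smaller and stood at 0.137 without the 2 dogs farthest out in SLC31A1. ERCC1 ran opposite to both: its rho was -0.260 with SLC31A1 (permutation p = 0.00048, adjusted p = 0.00350) and -0.241 with ATP7A (permutation p = 0.00098, adjusted p = 0.00599). The corresponding r were -0.241 (permutation p = 0.0010) and -0.264 (permutation p = 0.00033). Without the 2 dogs farthest out in SLC31A1 the first was -0.248, and without the 2 farthest out in ATP7A the second was -0.287. ERCC1 with GSTP1 had a rho of 0.231 (permutation p = 0.00136, adjusted p = 0.0313) and an r of 0.217 (permutation p = 0.00297), or 0.201 without the 2 dogs farthest out in GSTP1. Within the trials, ERCC1 with SLC31A1 stood at -0.203 in COTC021 and -0.315 in COTC022, ERCC1 with ATP7A at -0.021 and -0.429, and ERCC1 with GSTP1 at 0.086 and 0.378. SLC31A1 with ATP7A stood at 0.289 and 0.130. In the marked libraries and the unmarked, ERCC1 stood at -0.133 and -0.300 with SLC31A1, at -0.135 and -0.269 with ATP7A, and at 0.321 and 0.235 with GSTP1, and SLC31A1 with ATP7A stood at 0.235 and 0.208. The sign of these 4 pairs was thus kept in each of the 4 subsets of libraries, with values near 0 for ERCC1 and ATP7A in COTC021.

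No pair among the efflux pumps ABCB1, ABCC1 and ABCG2 passed. ABCB1 with ABCG2 had a rho of 0.148 (permutation p = 0.0432, adjusted p = 0.155) and an r of 0.187 (permutation p = 0.0106), or 0.137 without the 2 dogs farthest out in ABCB1. ABCB1 with ABCC1 had a rho of -0.058 (permutation p = 0.433, adjusted p = 0.610) and an r of -0.097 (permutation p = 0.190). ABCC1 with ABCG2 had a rho of -0.087 (permutation p = 0.237, adjusted p = 0.434) and an r of -0.061 (permutation p = 0.405). ATP7A and ATP7B, close relatives, had a rho of 0.067 (permutation p = 0.359, adjusted p = 0.559) and an r of 0.032 (permutation p = 0.663). Nor did ABCB1 pass with any of the other 7 genes. The calls depended on the scaling: on CPM of the library total without TMM, 7 pairs passed. ABCB1 with ABCG2 was among them at 0.197 and an adjusted p of 0.0410, while ERCC1 with ATP7A, at -0.127, no longer passed. The share of all genes that passed against each member was not counted without TMM, so these calls have no background beside them.

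Each gene was then set against 13 measures per dog: the GS-1 score, the scores of 11 marker lists (mean z-scores of osteoblast, osteoclast, chondrocyte, macrophage, T cell, endothelium, pericyte and smooth muscle, adipocyte, skeletal muscle, neutrophil and proliferation genes) and the library total. Of the 104 pairs, 29 passed an adjusted p of 0.05 over all genes, or 27.9%, where 32.0% of all genes and measures passed, and 31 passed when adjusted over the 104 pairs. Of those 31, 30 had 1 sign in both trials and both kinds of library, the exception being ATP7B with the T cell score, at 0.033 in the marked libraries.

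Some directions were shared between members and others were not. ABCC1 had its highest rho with the osteoblast lineage score, 0.294 (permutation p = 0.00010, adjusted over all genes p = 0.000459), where 31.4% of all genes passed and 10.4% had a rho at least as far from 0. Pearson's r was 0.254 (permutation p = 0.00047), or 0.246 without the 2 dogs farthest out, and the rho lay between 0.229 and 0.407 in the trials and kinds of library. ABCC1 ran opposite to the neutrophil score, with a rho of -0.280 (permutation p = 0.00018, adjusted p = 0.00203) and an r of -0.264 (permutation p = 0.00048), or -0.257 without the 2 dogs farthest out, where 16.6% of genes passed. With the skeletal muscle score its rho was -0.270 (permutation p = 0.00021, adjusted p = 0.00568) and its r -0.222 (permutation p = 0.00239), and without the 2 dogs farthest out in that score also -0.222, where 11.8% of genes passed. In the trials and kinds of library these rho lay between -0.255 and -0.293 for neutrophils and between -0.196 and -0.353 for skeletal muscle. The neutrophil list was thinly measured, with a median summed level of 17.1 CPM and 5 of its 9 genes tested. ABCC1 also rose with the library total, with a rho of 0.263 (permutation p = 0.00031, adjusted p = 0.0130) and an r of 0.245 (permutation p = 0.00078), or 0.284 without the 2 dogs farthest out, where 5.18% of genes passed. Its rho with the total was 0.342 in COTC021 and 0.229 in COTC022. Within the marked libraries that rho was 0.333, and within the unmarked 0.161.

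ABCB1 had its highest rho with the T cell score, 0.250 (permutation p = 0.00055, adjusted p = 0.00389), with an r of 0.278 (permutation p = 0.00015) or 0.269 without the 2 dogs farthest out. For that score 30.1% of genes passed and 15.0% had a rho at least as far from 0. In the trials and kinds of library the rho of ABCB1 with the T cell score lay between 0.195 and 0.316. The T cell list was thinly measured, with a median summed level of 30.3 CPM and 6 of its 10 genes tested, since CD3D, CD5, CD8A and ZAP70 failed the filter. ABCB1 ran opposite to the chondrocyte score, with a rho of -0.241 (permutation p = 0.00096, adjusted p = 0.00453) and an r of -0.302 (permutation p = 2e-05), or -0.271 without the 2 dogs farthest out, where 37.4% of genes passed. With the proliferation score its rho was -0.236 (permutation p = 0.00133, adjusted p = 0.00303) and its r -0.250 (permutation p = 0.00057), or -0.265 without the 2 dogs farthest out in that score, where 56.7% of genes passed. In the trials and kinds of library these rho lay between -0.216 and -0.293 for chondrocytes and between -0.135 and -0.348 for proliferation. With the osteoblast lineage score its rho was 0.016 (permutation p = 0.830) and its r 0.010 (permutation p = 0.896).

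ABCG2 had the value farthest from 0 of all 104 pairs, a rho of -0.316 with the chondrocyte score (permutation p = 2e-05, adjusted p = 0.000131), with an r of -0.272 (permutation p = 0.00026), or -0.261 without the 2 dogs farthest out. Of all genes, 8.72% had a rho at least as far from 0, and the value lay between -0.249 and -0.368 in the trials and kinds of library. ABCG2 rose with the endothelium score, with a rho of 0.197 (permutation p = 0.00708, adjusted p = 0.0219) and an r of 0.193 (permutation p = 0.00847), or 0.205 without the 2 dogs farthest out, where 38.9% of genes passed. That rho was 0.401 in the marked libraries and 0.120 in the unmarked. ABCG2 is known from the endothelium of the blood-brain barrier.

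ATP7B followed the osteoblast lineage score, with a rho of 0.245 (permutation p = 0.00093, adjusted p = 0.00451) and an r of 0.293 (permutation p = 7e-05), or 0.234 without the 2 dogs farthest out. It ran opposite to the macrophage score, with a rho of -0.282 (permutation p = 0.00012, adjusted p = 0.000449) and an r of -0.307 (permutation p = 5e-05), or -0.295 without the 2 dogs farthest out in that score, where 47.9% of genes passed. In the trials and kinds of library these rho lay between 0.095 and 0.269 for osteoblasts and between -0.206 and -0.303 for macrophages. SLC31A1 went the other way with macrophages, with a rho of 0.251 (permutation p = 0.00068, adjusted p = 0.00202) and an r of 0.243 (permutation p = 0.00096), or 0.249 without the 2 dogs farthest out, and with rho between 0.162 and 0.338 in the trials and kinds of library. ATP7A rose with the osteoclast score, with a rho of 0.225 (permutation p = 0.00232, adjusted p = 0.00940) and an r of 0.232 (permutation p = 0.00172), or 0.213 without the 2 dogs farthest out, where 33.0% of genes passed. It ran opposite to the proliferation score, with a rho of -0.252 (permutation p = 0.00072, adjusted p = 0.00147) and an r of -0.243 (permutation p = 0.00106), or -0.201 without the 2 dogs farthest out in that score. In the trials and kinds of library these rho lay between 0.204 and 0.260 for osteoclasts and between -0.144 and -0.355 for proliferation. SLC31A1 and ABCG2 also passed as opposite to the proliferation score, at rho of -0.213 and -0.230, while ABCC1 passed as rising with it, at 0.256. Like ATP7A, ABCB1 passed as rising with the osteoclast score, at a rho of 0.216 (adjusted over all genes p = 0.0131). Like ABCB1 and ABCG2, ATP7A passed as opposite to the chondrocyte score, at a rho of -0.205 (adjusted over all genes p = 0.0174). ERCC1 passed with a single measure, the pericyte and smooth muscle score, with a rho of -0.270 (permutation p = 0.00023, adjusted p = 0.000944) and an r of -0.260 (permutation p = 0.00035), or -0.249 without the 2 dogs farthest out, where 44.0% of genes passed. COTC021 had a rho of -0.137 and COTC022 of -0.408, while the marked libraries had -0.417 and the unmarked -0.213. GSTP1 passed with none of the 13 measures when adjusted over all genes. The parts that the other cell types had in these levels were not tested.

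**Figure D4:**
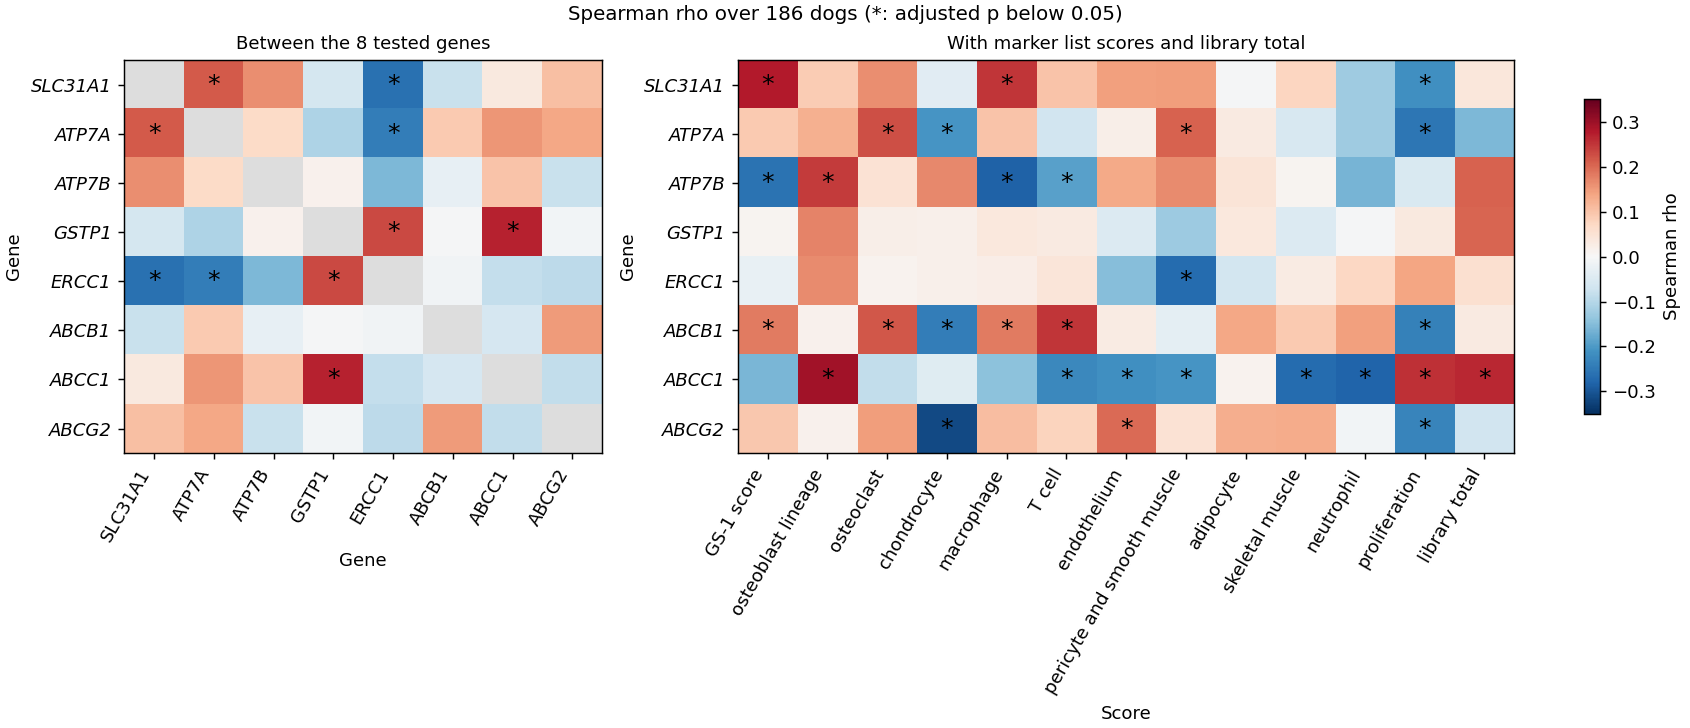
Spearman rho over 186 dogs between the 8 tested genes (left) and of each gene with 11 marker list scores, the GS-1 score and the library total (right), in red for positive and blue for negative values, with a star at an adjusted p below 0.05 over all genes tested. The left panel has 5 starred pairs, each shown in both triangles, and the right panel 29, among which ABCG2 with the chondrocyte score is the deepest blue at -0.316.

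The genes whose levels most resembled each member were listed by Spearman rho over the 186 dogs, as a description with no test. For 6 of the 8 members, the closest gene lay on the member's own chromosome. How often this holds over all tested genes was not counted. SLC31A1 resembled INVS (rho 0.620), DCAF10 (0.582) and GNE (0.577), all on chromosome 11 and between 10.5 and 14.9 Mb away. ATP7A resembled YIPF6 (0.616), IDS (0.554) and XIAP (0.551), all on the X chromosome and between 7.11 and 58.1 Mb away. ATP7B resembled ALG11 (0.485), 0.0297 Mb away on chromosome 22, and ITPKB (0.449) and KIAA1549 (0.448) on other chromosomes.

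GSTP1 resembled its neighbours on chromosome 18: CDK2AP2 (rho 0.490), the complex I subunit NDUFV1 (0.434) and another, NDUFS8 (0.427), lay 0.0617, 0.0179 and 0.105 Mb away. Without the 2 dogs farthest out in GSTP1, Pearson's r of GSTP1 with CDK2AP2 went from 0.561 to 0.465. ERCC1 resembled the ribosomal protein gene RPL18 (0.643), the translation factor subunit EIF3K (0.583) and SMG9 (0.577), all on chromosome 1 and between 1.27 and 4.41 Mb away. ABCG2 resembled ADH4 (0.499), ALPK1 (0.482) and HSD17B11 (0.444), all on chromosome 32, with HSD17B11 at 0.638 Mb and ALPK1 at 20.6 Mb.

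ABCB1 and ABCC1 had their closest genes elsewhere in the genome. For ABCB1, on chromosome 14, these were RAP1GAP2 (rho 0.472), TMEM123 (0.467) and the leukocyte integrin ITGAX (0.451). For ABCC1, on chromosome 6, they were UBE2O (0.558), LARP1 (0.550) and the RNA polymerase II subunit POLR2A (0.538). The genes with the lowest rho were ANKRD46 for SLC31A1 (-0.476), C1QBP for ATP7A (-0.536), VTA1 for ATP7B (-0.404), APPL1 for GSTP1 (-0.490), MED13 for ERCC1 (-0.498), FAM98A for ABCB1 (-0.449), CCDC85B for ABCC1 (-0.523) and PODXL2 for ABCG2 (-0.444). None of these 8 genes lay on the chromosome of its member.

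The share of the 50 closest genes that lie on the member's own chromosome was counted after these names had been seen. It was 80.0% for SLC31A1, 56.0% for ERCC1, 52.0% for GSTP1, 26.0% for ABCG2, 20.0% for ABCC1, 18.0% for ATP7A, 18.0% for ATP7B and 0% for ABCB1. Over 13401 tested genes with a position the median share was 20.0%, while a gene's own chromosome holds on average 3.33% of the genes, so an excess on the own chromosome was common in these tumors. The share of SLC31A1 was above that of 91.6% of genes, and those of ERCC1 and GSTP1 above 81.6% and 79.6%. ABCB1, at 0%, is 1 of the 4.81% of genes with no gene of its own chromosome among the 50.

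The shares varied between subsets of dogs, in which the share over all tested genes was not counted. SLC31A1 kept 76.0% in COTC021 and 64.0% in COTC022, and ERCC1 70.0% and 46.0%. GSTP1 had 6.00% in COTC021 and 72.0% in COTC022. ABCB1 stood at 0% in both trials and in both kinds of library. With distance, the median rho of GSTP1 with genes of its chromosome was 0.214 for the 48 within 1 Mb, 0.175 from 1 to 5 Mb, 0.092 from 5 to 20 Mb and 0.028 beyond. For ERCC1 it was 0.156 for the 55 within 1 Mb, 0.186 from 1 to 5 Mb, 0.056 from 5 to 20 Mb and 0.00 beyond. For SLC31A1 it was 0.205 for the 21 within 1 Mb, 0.294, 0.276 and 0.190 over the same ranges. The median rho with genes of other chromosomes was close to 0 for every member, from -0.011 to 0.002.

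**Figure D5:**
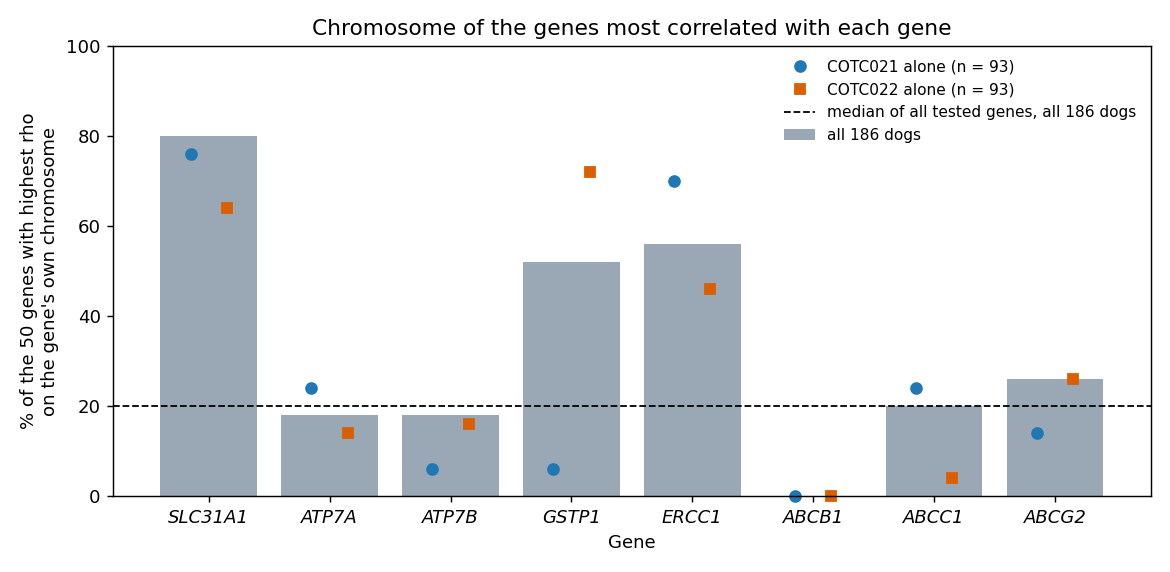
Percentage of the 50 genes with the highest Spearman rho that lie on the same chromosome as each tested gene, in all 186 dogs (bars), in COTC021 alone (blue circles) and in COTC022 alone (orange squares). The dashed line is the median over all tested genes in all 186 dogs, 20.0%, and was not computed within a trial. SLC31A1, ERCC1 and GSTP1 rise above the line at 80.0%, 56.0% and 52.0%, and ABCB1 is at 0%.

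The tumor in which a member was highest was examined for the genes around it, again after the pattern had been seen. In the dog with 1164 CPM of GSTP1, 3.59 log2 above the median dog, the 48 tested genes within 1 Mb had a median of 1.18 log2 above their own medians, and 24 of them were over 1 log2 above, where 7.98% of all genes were. In the dog with 169 CPM of ABCC1, 3.20 log2 above the median, the 13 genes within 1 Mb had a median of 0.71, and 6 were over 1 log2 above, where 10.9% of all genes were. ATP7A's highest tumor, 2.00 log2 above the median, had 9 of 9 genes within 1 Mb above their medians and 4 over 1 log2, where 10.5% of all genes were. In the dog with 201 CPM of ABCB1, 6.08 log2 above the median, the 10 genes within 1 Mb had a median of 0.40 and 2 were over 1 log2, where 13.0% of all genes were. For the other members the highest tumor stood less far out. Over 1 log2 were 4 of 21 genes around SLC31A1 (9.05% of all genes), 0 of 4 around ATP7B (8.52%), 11 of 55 around ERCC1 (17.1%) and 2 of 20 around ABCG2 (12.4%). Each of these describes 1 library, with no replicate. The same values were not computed around other genes in their own highest tumors, so whether the members differ from other genes here was not tested.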

How the data were processed

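The authors trimmed reads with cutadapt, aligned them with STAR 2.7.0f to GSD_1.0 and quantified genes with RSEM 1.3.1, as the submitters' processing notes and the paper's methods state. The deposited values are expected counts without normalization, in which a read that maps to several genes is divided between them, and 3.07% of values were not whole. They were rounded after the 2 rows of ABCG2 had been added. Of 198 columns 186 were used and 12 were not, since no sample listed here carries their names. Rows were matched by symbol, and positions came from the RefSeq table of UU_Cfam_GSD_1.0.

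The members and gene lists were chosen with earlier results of these data known. Low counts were filtered by filterByExpr in edgeR 4.0.16, at a min.count of 10, with min.prop at 0.5, large.n at 5 and one group. After TMM scaling, voom from limma 3.58.1 was run in R 4.3.3, and p-values were adjusted by Benjamini-Hochberg over all genes tested and called below 0.05. The trial was a term of the fits on the GS-1 score and the library name. Alternatives used edgeR's quasi-likelihood test and DESeq2 1.42.0, and intervals cover 95%. The fit was tested on simulated counts. The GS-1 score used quantile-normalized log2(CPM + 2). Correlations used log2 CPM with a prior count of 2, with two-sided permutation tests of 100000 resamples (Python 3.11.15, numpy 2.4.6, scipy 1.17.1, pandas 2.3.3), and p-values of rho against all genes came from the t approximation at n = 186. The 2 dogs left out in a check were those farthest from the median of the score or library total at hand. For a pair of genes they were farthest in 1 gene only, and extremes of the other gene stayed in. Figures used matplotlib 3.10.9. Named genes were all members, the 3 with the highest and the 1 with the lowest rho for each, and the 3 largest called list genes in each direction. ERCC4, SLC31A2, MUS81 and DDB1 were named outside this rule. Depth, from 6587634 to 27420867 counts, limits ABCC2 and low ABCB1 levels most. Disease-free interval, survival and the paper's clusters were not analysed here, and neither was which trial number received rapamycin.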

Additional observations from a re-analysis of the deposited data

How the results depend on the processing

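The count of members that passed was the same as in the report under DESeq2 size factors and with the ABCG2 rows kept apart, an alternative chosen after seeing the data, for all 3 fits. For the trials, 0 passed in the report and 1, ABCB1, with edgeR's quasi-likelihood test and with DESeq2, as did 1 list gene with each. For the GS-1 score, 3 passed in the report and 1 within the marked libraries and within COTC021. The 49 list genes that passed there became 28 within the marked libraries, 30 within the unmarked and 20 within COTC021, where fewer samples were fitted. Of all genes, 24.4%, 34.4% and 26% passed in these 3 fits in the same order, against 48.5% in the report. For the library name, 1 passed in the report and 0 with edgeR, with DESeq2, within COTC021 and within COTC022. Without the low-count filter 3 passed, as did 24 list genes, in a fit that called 44.2% of 30013 genes. Of those 3, ABCC2 was at 0 in 45 of the 50 marked and 124 of the 136 unmarked libraries, so its call is not read as a difference. With edgeR and DESeq2 6 list genes passed between the kinds of library, and within COTC022 0, against 1. In the same comparison 5.16% of all genes passed with edgeR, 5.09% with DESeq2, 1.07% within COTC021 and 0.663% within COTC022. Where 5 member pairs passed in the report, 1 did within COTC021, 0 within the marked libraries, 3 within the unmarked and 6 after removing trial, library name and GS-1 score. The share of all genes that passed against each member was not counted in these settings.

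Signs that turned were those of values that had not passed, with the exception of ATP7B with the T cell score, whose rho was 0.0335 in the marked libraries. Within the marked libraries the trial differences were 0.14 for ABCB1, 0.0248 for ABCG2, 0.15 for ATP7A, -0.11 for ATP7B and 0.0259 for GSTP1, and within the unmarked libraries -0.0232 for SLC31A1. The GS-1 slopes of ERCC1 and GSTP1 were -0.00523 and -0.00432 with edgeR, -0.00344 and -0.00380 with DESeq2, and -0.0201 and -0.0470 within the unmarked libraries. That of GSTP1 was -0.0876 and that of ABCG2 -0.00781 within COTC021, and that of ABCC1 was 0.0525 within the marked libraries and 0.0248 within COTC022. Between the kinds of library, ABCB1 stood at 0.31 and ATP7A at 0.0568 within COTC022. Of pairs that had not passed, the rho of ATP7A with ABCC1 was -0.0147 within COTC021, that of ATP7A with ATP7B -0.0199 within COTC022 and -0.0269 within the marked libraries, that of ABCB1 with ABCC1 0.0467 and 0.111 in the same order, and that of ABCB1 with the osteoblast lineage score -0.108 within the marked libraries. The cause was not tested in any of these. For the fits of the members, the pairs that passed in any setting and the other pairs the report names, 459 single values were recomputed, of which 399 kept their sign and their side of the threshold, 25 lost the threshold, 10 gained it and 25 turned.

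No paired analysis was possible because each dog gave 1 sample and the labels number no pairs. Depth limits low levels, since 37 libraries held fewer than 10 ABCB1 counts.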
